A study of Mus musculus with 4 samples.

Results

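Keratins are the intermediate filament proteins of epithelial cells. Of the 34866 genes in the deposited count table, 10 keratin genes were taken by name, 5 of simple epithelium (Krt7, Krt8, Krt18, Krt19 and Krt20) and 5 of stratified epithelium (Krt4, Krt5, Krt13, Krt14 and Krt15). RNA sequencing was done on gastric corpus mucosa of mice with 2 genotypes, Muc6 +/+ (controls, 2 libraries) and Muc6 -/- (mutants, 2 libraries). Muc6 encodes a secreted mucin of gland mucus, and the study asked how its loss relates to gastric cancer. Strain, age, treatment, the kind of deletion and the number of animals per library have no entry in the sources used here. The titles of both mutant libraries, but not of the controls, hold the characters 3M, whose meaning is not stated, so a difference other than genotype may be marked there. The labels do not say whether each library is its own animal, so p-values here measure only how far these samples spread, and that spread could be technical.

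A keratin filament is built from pairs, each of 1 acidic type I chain and 1 basic or neutral type II chain. Single-layered epithelium such as gastric glands is known for the type II chain Krt8 with the type I chains Krt18 and Krt19, and some surface and duct cells add Krt7 (type II) or Krt20 (type I). The lining of the mouse forestomach is stratified and squamous. Its basal cells are known for Krt5 with Krt14 and Krt15, and its upper layers for Krt4 with Krt13.

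The genes lie in 2 clusters of the mm10 assembly. On chromosome 15 are all 4 type II members, namely Krt7 (chr15:101411043-101430313, plus strand), Krt5 (chr15:101707070-101712898, minus strand), Krt4 (chr15:101918535-101924735, minus strand) and Krt8 (chr15:101996698-102004482, minus strand). The type I gene Krt18 (chr15:102028180-102032027, plus strand) lies beside Krt8. The other type I members are on the minus strand of chromosome 11, Krt20 at chr11:99428403-99438150, Krt13 at chr11:100117327-100121566, Krt15 at chr11:100131758-100135928, Krt19 at chr11:100140810-100148665 and Krt14 at chr11:100203162-100207548.

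RefSeq promoter entries (GRCm38, the assembly of mm10) matched 7 of the 10 members. In 3 of them the annotated start lay within 10 bases of a GENCODE coding start with no annotated exon of the gene upstream, and the letters ATAAAAGG were present. These were 1 simple and 2 stratified genes, which differed widely in level and are shown because they share this TATA-like element. The 120 bases before each start are printed on the gene's strand (minus for all 3), with ATAAAAGG in capitals.
Krt20 (chr11:99438154-99438273): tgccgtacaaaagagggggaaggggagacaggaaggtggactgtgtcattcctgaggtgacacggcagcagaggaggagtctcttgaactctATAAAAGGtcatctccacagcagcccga
Krt13 (chr11:100121567-100121686): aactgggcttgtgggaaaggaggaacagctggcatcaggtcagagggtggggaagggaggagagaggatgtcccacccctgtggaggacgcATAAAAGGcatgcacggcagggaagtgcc
Krt5 (chr15:101712906-101713025): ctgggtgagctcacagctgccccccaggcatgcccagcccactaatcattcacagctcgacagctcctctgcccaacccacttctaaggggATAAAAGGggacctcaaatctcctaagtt
The element began 28 bases before the start in Krt20 and 29 bases before it in Krt13 and Krt5. On either strand it was in 0.947% of 32851 promoter windows of this length. TATAAA was in 6.34% of them and, overlapping ATAAAAGG, in Krt20 alone of the 3. The element was chosen after the sequences were seen, and a match of letters is a description only.

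Total counts were 27946423 and 20895793 in control 1 and 2, and 20327745 and 21717123 in mutant 1 and 2. Muc6 had 8542 and 6000 counts in the controls and 0 and 10 in the mutants, which follows the labels. Mutant 1 stood apart from mutant 2. The markers of parietal cells (acid secretion) summed to 15064 and 14817 CPM (counts scaled to library size with TMM factors) in the controls, 515 in mutant 1 and 4753 in mutant 2, and those of chief cells (pepsinogen secretion) to 64361, 147837, 2320 and 81388 CPM. Genes of antrum and duodenum differed in direction. Gast was at 9.77 CPM in mutant 1 against 0 to 0.0403 in the other 3 libraries, and Pdx1 at 59.0 CPM against 0.0521 to 2.52. Vil1 was also highest in mutant 1 (64.8 and 39.5 CPM in the controls, 377 and 76.6 CPM in the mutants). Cdx2 had 9 counts in mutant 1 and 0 in the other 3 libraries, and Cdx1 had 1 count in control 1 and 0 in the others. Sst was lowest in mutant 1 (88.5 and 217 CPM in the controls, 20.7 and 133 CPM in the mutants). So was Hoxa5 (0.363 and 3.85 against 0.134 and 2.15 CPM), and both genes were higher in the second library of each genotype. Fitted results of the members are therefore given with and without mutant 1, and those of gene lists also for mutant 2 alone. In both genotypes the second library held more smooth muscle RNA, with smooth muscle markers at 286 and 1791 CPM in the controls and 345 and 1665 CPM in the mutants. The summed level of 4 Y-linked genes (Ddx3y, Uty, Kdm5d, Eif2s3y) was 136 and 121 CPM in the controls and 1.43 and 2.44 CPM in the mutants, so genotype and Y-linked expression cannot be told apart. Mitochondrial transcripts made up 9.39% and 8.73% of counts in the controls and 5.97% and 5.41% in the mutants, without overlap, and their part in the keratin values was not tested.

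All 10 keratins had their highest value in mutant 1, and the genes that were nearly silent in the controls differed most. Krt7 was 212-fold higher in the mutants, Krt13 99.9-fold and Krt20 5.66-fold, while Krt8, Krt18 and Krt19 were 1.37-fold to 1.64-fold higher with overlapping groups. These folds are ratios of summed counts per summed library size, and they pool 2 unlike mutant libraries. Relative to the control mean in CPM, mutant 1 and mutant 2 stood at 385 and 43.8 for Krt7. For Krt13 the values were 211 and 10.1, and for Krt20 10.2 and 1.93. By edgeR's quasi-likelihood test no member passed an adjusted p of 0.05, as was so for every gene tested (0 of 14067, 0%, and 0 by limma voom as well). At an unadjusted edgeR p under 0.05 there were 2236 genes (15.9% of those tested), among them Krt7. Krt4, Krt13 and Krt14 were also under 0.05, but they passed the filter only with the help of their mutant counts. They are not read against that share. By DESeq2, 1044 genes passed, 571 of them higher in the mutants (4.06% of those tested) and 473 lower (3.36%). Krt7 and Krt20 were among those higher. So were Krt4, Krt13 and Krt14, but these entered the test only through their mutant counts, so their calls are not read against that share. In 6 of the 10 members both mutant libraries were above both control libraries, 2 of the simple and 4 of the stratified genes. The same held for 26.3% of all genes tested, a share that covers no gene as low as Krt15, which was not tested. Krt15 counts among the 6 by 4 counts in mutant 2 against 3 in control 2. Krt4 and Krt14, at 0 counts in the controls, could pass the filter only with both mutant libraries above both controls. Their lack of overlap was thus fixed by the filter and is not read against that share. Mutant 1 exceeded mutant 2 in 10 of 10 members, against 49.1% of all genes tested.

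**Figure D1:**
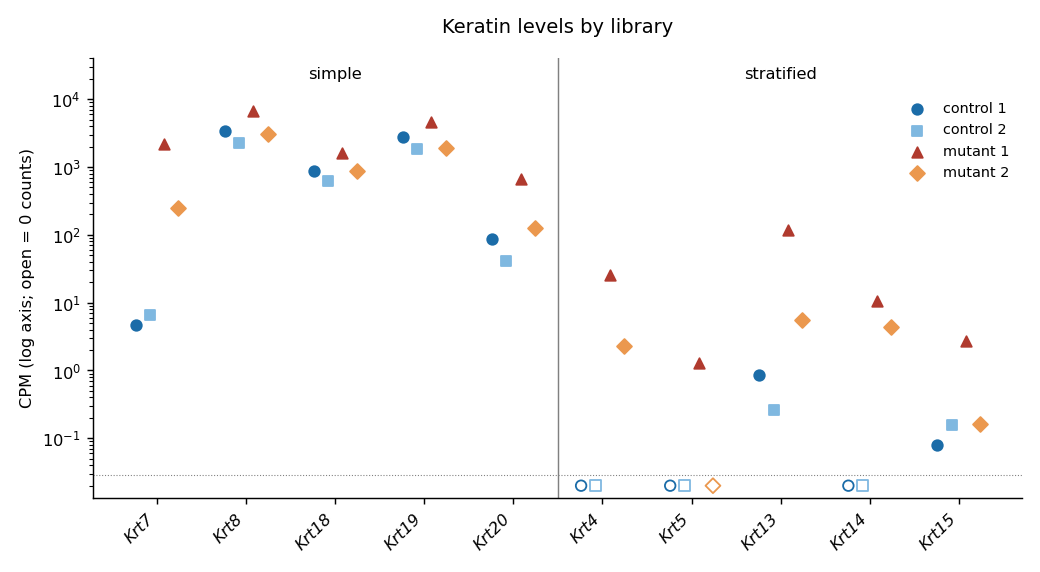
CPM of each keratin gene (log axis) in the 4 libraries, simple genes on the left and stratified genes on the right, with open symbols below the dotted line for 0 counts. Mutant 1 is the highest library for every gene, Krt7 goes from 4.72 and 6.56 CPM in the controls to 2173 and 247 CPM in the mutants, and Krt8, Krt18 and Krt19 overlap between genotypes.

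Krt7, a type II chain of ducts and of some glandular epithelia, was the simple keratin that differed most. It had 117 and 126 counts in control 1 and 2, and 48479 and 5987 in mutant 1 and 2. In CPM these were 4.72, 6.56, 2173 and 247. Both mutant libraries were far above both control libraries, although they differed 8.79-fold from each other. The ratio of summed counts was 212 (exact 95% interval 187 to 241, counting error only). On the log2 scale the difference was 7.75 ± 1.41 (SE, 2 libraries a group). The adjusted p was 0.210 by edgeR and 7.17e-07 by DESeq2. Without mutant 1 the difference was 5.41 (edgeR adjusted p = 0.0929), and without mutant 2 it was 8.54 (edgeR adjusted p = 0.0106). In bulk tissue, more cells with Krt7 and more Krt7 RNA per cell cannot be told apart.

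Krt20, a type I chain of differentiated gastric surface and intestinal cells, had 2176 and 790 counts in the controls and 14737 and 3013 in the mutants. Its CPM values were 87.8 and 41.2 against 661 and 124. The groups did not overlap, but control 1 was within 1.5-fold of mutant 2. Mutants differed by a log2 fold change of 2.61 ± 0.96 (SE, n = 2 a group; adjusted p = 0.321 by edgeR and 0.0155 by DESeq2). Without mutant 1 it was 0.91 (edgeR adjusted p = 0.589). Markers of surface pit cells summed to 108981 and 72265 CPM in the controls and 61763 and 48512 CPM in the mutants. In the fit 4 of 4 markers were lower, where 49.9% of all genes tested were higher. One of these markers, Tff1, overlapped between genotypes, with a log2 fold change of -0.04. By edgeR 0 passed, and by DESeq2 1, Gkn1, passed as lower (3.36% of all genes tested). The antral and intestinal brush border gene Vil1 was at 64.8 and 39.5 CPM against 377 and 76.6 CPM, in the same library order as Krt20. Its part in the result was not tested.

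Krt8, the main type II chain of simple epithelium, was at 3397 and 2276 CPM in the controls and 6668 and 3034 CPM in the mutants. Mutant 2 lay between the control libraries. Mutants differed by a log2 fold change of 0.77 ± 0.52 (SE, n = 2 a group; adjusted p = 0.538 by edgeR and 0.428 by DESeq2) and 0.06 without mutant 1. Krt18, its usual type I partner, was at 872 and 632 CPM against 1592 and 863 CPM, with a log2 fold change of 0.71 ± 0.41 (adjusted p = 0.482 by edgeR and 0.371 by DESeq2), and 0.16 without mutant 1. Krt19, the smallest keratin chain and a type I partner of Krt8, was at 2758 and 1816 CPM against 4619 and 1917 CPM, with a log2 fold change of 0.51 ± 0.55 (adjusted p = 0.716 by edgeR and 0.747 by DESeq2). Without mutant 1 its sign turned, to -0.30 (edgeR adjusted p = 0.837). For each of these 3 genes the difference between genotypes was smaller than that between the 2 mutant libraries.

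The 5 simple keratins together were at 7120 and 4772 CPM in the controls and 15713 and 6185 CPM in the mutants. The library with more smooth muscle RNA had the lower sum in both genotypes. All 5 were higher in the fit, with a median log2 fold change of 0.77, against a median of -0.0017 over all genes tested, of which 49.9% were higher. In log2 CPM the median of the 5 lay 1.26 above the control mean in mutant 1 and 0.22 above it in mutant 2, where the medians over all genes tested were 0.006 and 0.033.

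Set against other epithelial genes, the direction of the abundant simple keratins depended on the gene used. Per count of Cdh1, which encodes the adhesion protein E-cadherin, Krt8 stood at 2.77 and 2.44 in the controls and 4.20 and 3.15 in the mutants, without overlap. Per count of Epcam, an epithelial surface gene, Krt8 stood at 20.7 and 15.7 in the controls and 16.1 and 12.4 in the mutants, with overlap and the lower mean in the mutants. Krt18 went from 0.710 and 0.677 to 1.004 and 0.896 per Cdh1 count, higher without overlap. Per Epcam count it went from 5.32 and 4.35 to 3.85 and 3.53, lower without overlap. Krt19 stood at 2.25 and 1.94 against 2.91 and 1.99 per Cdh1 count, with overlap. Per Epcam count Krt19 stood at 16.8 and 12.5 against 11.2 and 7.83, lower without overlap. Epcam itself measured 164 and 145 CPM against 414 and 245 CPM, and Cdh1 at 1228 and 934 CPM against 1586 and 963 CPM. Krt7 was higher in both mutant libraries with either gene. It stood at 0.00384 and 0.00703 against 1.37 and 0.257 per Cdh1 count, and at 0.0288 and 0.0452 against 5.25 and 1.01 per Epcam count. Krt20 stood at 0.0715 and 0.0441 against 0.417 and 0.129 per Cdh1 count, without overlap. Per Epcam count it stood at 0.536 and 0.283 against 1.60 and 0.508, with overlap.

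The stratified keratins were close to absent in control corpus and low in the mutants. Their counts summed to 23 and 8 in the controls and to 3519 and 303 in the mutants, or 0.928 and 0.417 CPM against 158 and 12.5 CPM. Against the control mean the stratified sum was 235 times as high in mutant 1 and 18.6 times in mutant 2, where the simple sum was 2.64 and 1.04 times as high. Of the 5 genes, Krt4, Krt13 and Krt14 passed the filter on low counts, each only through the mutant libraries, so that neither their fitted medians nor their calls are support for a difference. The fitted median of these 3 was 10.42 on the log2 scale and 6.77 with Krt4 and Krt14, at 0 in the controls, set to their lower bounds. Over all 5 genes with no filter and with bounds it was 6.69.

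Krt13, the type I chain of upper squamous layers, was the most abundant stratified keratin in all 4 libraries. It had 21 and 5 counts in the controls and 2610 and 136 in the mutants. Mutant 1 was 20.8-fold above mutant 2. The ratio of summed counts was 99.9 (exact 95% interval 68.0 to 153), and the fitted log2 fold change 6.72 ± 1.89 (SE, n = 2 a group; adjusted p = 0.255 by edgeR and 0.00390 by DESeq2). Without mutant 1 the log2 fold change was 3.28 (edgeR adjusted p = 0.283).

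Krt4, the type II partner of Krt13, had 0 counts in both control libraries and 580 and 56 in the mutants. It was at least 200.4-fold higher in the mutants against a floor of 3 counts over both control libraries (adjusted p = 0.251 by edgeR and 3.06e-06 by DESeq2, and 0.269 by edgeR without mutant 1). The fold bound pools both mutant libraries and rests mostly on mutant 1. Per length of exons, Krt13 exceeded Krt4 by 5.27-fold in mutant 1 and 2.84-fold in mutant 2. The pair thus did not keep 1 ratio in the 2 libraries.

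Krt14, the type I chain of basal squamous cells, also had 0 counts in both control libraries, with 239 and 107 in the mutants, at least 109-fold higher against the same floor. The mutant libraries differed 2.42-fold in CPM (10.7 and 4.42), much less than for Krt4 (11.2-fold) and Krt13. The adjusted p was 0.209 by edgeR and 7.49e-07 by DESeq2. Without mutant 1 the edgeR adjusted p was 0.213. Krt5, the type II partner of Krt14, had 29 counts in mutant 1 and 0 in the other 3 libraries, so Krt14 was counted in mutant 2 with no count of Krt5. A count of 0 in mutant 2 allows up to 3 counts, or 0.124 CPM. Krt15, a further basal type I chain, had 2 and 3 counts in the controls and 61 and 4 in the mutants. Mutant 2 exceeded control 2 by 1 count, and in CPM the values were 0.156 and 0.165, which is within counting error.

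**Figure D2:**
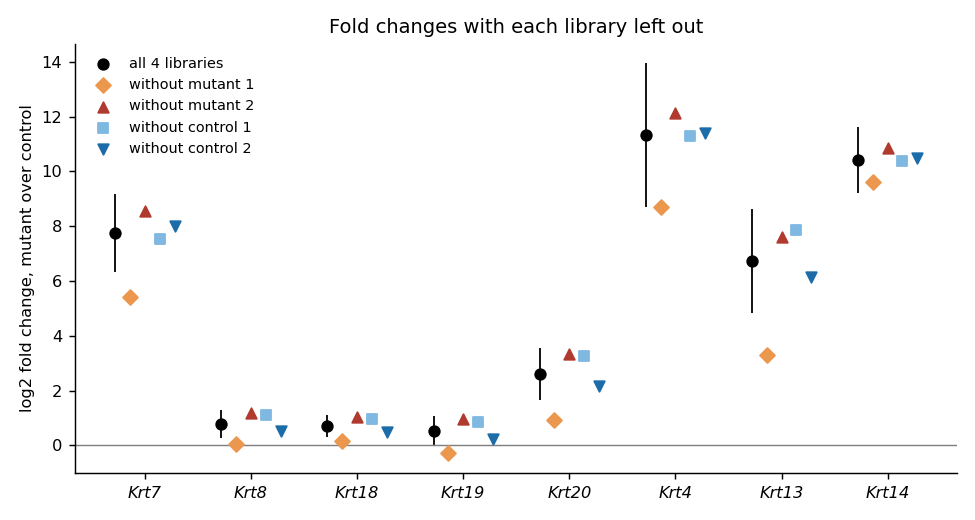
Log2 fold change of mutant over control for the 8 keratin genes tested, from the edgeR fit with all 4 libraries (black, bars are SE) and with each library left out. Without mutant 1, Krt8, Krt18 and Krt19 lie at 0.06, 0.16 and -0.30 and Krt7 at 5.41. The fitted values of Krt4 and Krt14 have 0 counts in the controls and depend on the prior count.

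The order of the genes was much alike in the 4 libraries. Levels of different genes were compared in TPM, a scale per length made from counts per kilobase of annotated exons. In control 1 and 2 the level was 2870 and 1913 TPM for Krt8, 2460 and 1612 for Krt19, 1004 and 724 for Krt18, 75.4 and 35.1 for Krt20, and 1.11 and 1.53 for Krt7. In mutant 1 and 2 it was 8238 and 3453 TPM for Krt8, 6023 and 2302 for Krt19, 2680 and 1339 for Krt18, 829 and 144 for Krt20, and 746 and 78.2 for Krt7. In each library Krt13 was the sixth. With the longest transcript as the length, Krt19 came before Krt8 in control 1 (2574 against 2552 TPM) and Krt7 before Krt20 in mutant 1 (1093 against 706 TPM), so those neighbours have no firm order. Krt7 has 7.05 kb of annotated exons but a longest transcript of 4.09 kb, and its level per length depends on that choice.

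The ratio of the 2 keratin types was nearly the same in libraries of a genotype. It was picked from several ratios after their values were seen. Summed per length, type I chains stood to type II chains at 1.23 and 1.24 in the controls and at 1.08 in both mutant libraries (1.236 ± 0.0040 against 1.076 ± 0.0013, SD, n = 2 a group). With the longest transcript as the length the ratios were 1.38 and 1.39 against 1.13 and 1.17, so the groups stayed apart while the mutant libraries came to differ from each other. An exact permutation test of 2 libraries against 2 cannot give a two-sided p below 0.333, so that test cannot reach 0.05 for any of these ratios, and no other test was run on them. Krt19 stood to Krt8 at 0.812 and 0.798 in counts in the controls and at 0.693 and 0.632 in the mutants, a ratio that needs no gene length. Krt19 made up 38.4% and 37.6% of the 10 genes per length in the controls and 32.2% and 31.4% in the mutants. Krt8 made up 44.8% and 44.6% against 44.0% and 47.1%, with overlap. Krt7 went from 0.0173% and 0.0358% to 3.98% and 1.07%. The stratified genes made up 0.0132% and 0.00889% in the controls and 1.09% and 0.206% in the mutants. Of the counts of all keratin genes in the table, the 5 simple genes made up 97.3% and 97.2% in the controls and 95.5% and 94.8% in the mutants, and keratins outside the 10 made up 2.70% and 2.76% against 3.58% and 5.01%. Krt8 to Krt18 per length stood at 2.86 and 2.64 against 3.07 and 2.58, with overlap.

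**Figure D3:**
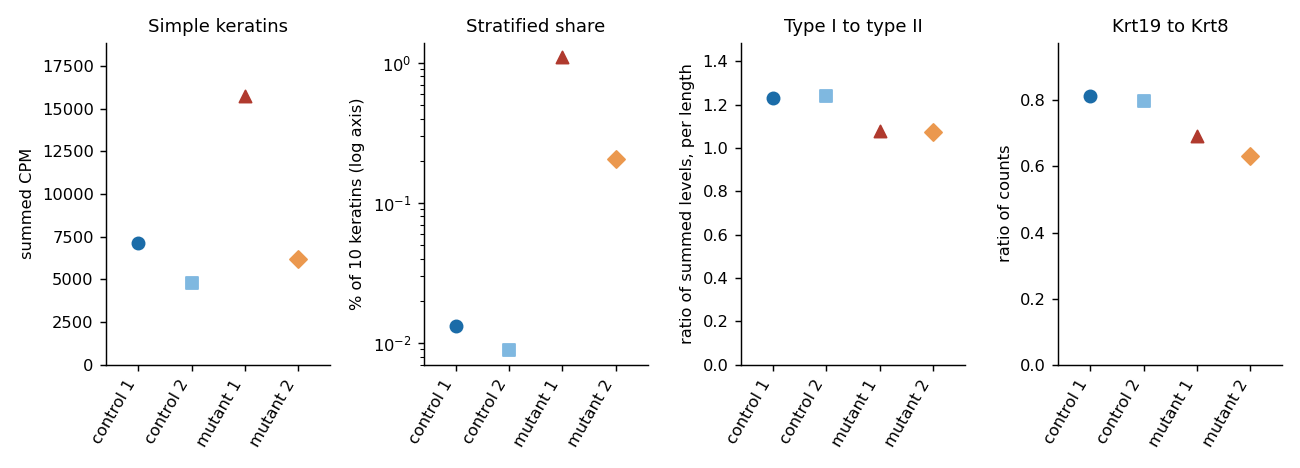
Per library, the summed CPM of the 5 simple keratins, the share of stratified keratins among the 10 per length (log axis), the ratio of type I to type II levels per length, and the ratio of Krt19 to Krt8 counts. The simple sum of mutant 2 (6185 CPM) lies between the control libraries (4772 and 7120), while both ratios separate the genotypes.

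Of the 44 other keratin genes in the table, 20 had 0 counts in all 4 libraries. In 15 of the other 24 both mutant libraries were above both control libraries, and in 0 both were below. The share over all genes tested was 26.3%, but 13 of the 24 were too low to be tested, some with a few counts in all, and are not covered by it. All 11 that were tested were higher in the fit, with 0 passing by edgeR. Of these, Krt1, Krt6a, Krt76, Krt77, Krt87 and Krt222 entered the test only with the help of their mutant counts, so that the count is no support for a difference. Krt80, a type II chain of several epithelia, was at 12.5 and 10.8 CPM in the controls and 179 and 67.0 CPM in the mutants (log2 fold change 3.40 ± 0.56, SE, n = 2 a group; adjusted p = 0.209 by edgeR and 3.46e-08 by DESeq2). Krt79 was at 11.5 and 6.98 CPM against 61.6 and 55.2 CPM (2.66 ± 0.29; adjusted p = 0.180 by edgeR and 2.33e-11 by DESeq2). Its mutant libraries were alike, unlike those of any of the 10 genes. Krt78 was at 12.0 and 5.21 CPM against 64.5 and 40.0 CPM (2.60 ± 0.51; adjusted p = 0.220 by edgeR and 6.89e-05 by DESeq2). Krt23, the most abundant of these genes, overlapped between genotypes, at 159 and 108 CPM against 252 and 154 CPM.

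The remaining keratins outside the 10, some of them known from skin and oral epithelium, were low. Krt76, a type II chain of the palate and gums, had 0 and 1 counts in the controls and 92 and 43 in the mutants, a ratio of 128 (exact 95% interval 22.5 to 5079). Krt87 had 2 and 4 counts against 151 and 17, and Krt77 had 2 and 2 against 25 and 24. Krt6a had 0 counts in the controls and 26 and 15 in the mutants, at least 12.9-fold higher. Krt10, of differentiating skin, measured 1.98 and 1.77 CPM against 13.4 and 2.31 CPM, and Krt1 had 7 and 7 counts against 25 and 47. Krt12 had 0 counts in the controls and 18 and 4 in the mutants. Krt16 had 1 and 0 against 33 and 2, Krt17 had 1 and 4 against 9 and 21, and Krt36 had 3 and 0 against 21 and 5. Krt222 did not differ beyond its error (9 and 12 counts against 12 and 11). Estimated counts of such similar genes may share reads. The pseudogene Krt8-ps had 5, 2, 10 and 7 counts, which is negligible beside Krt8.

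**Figure D4:**
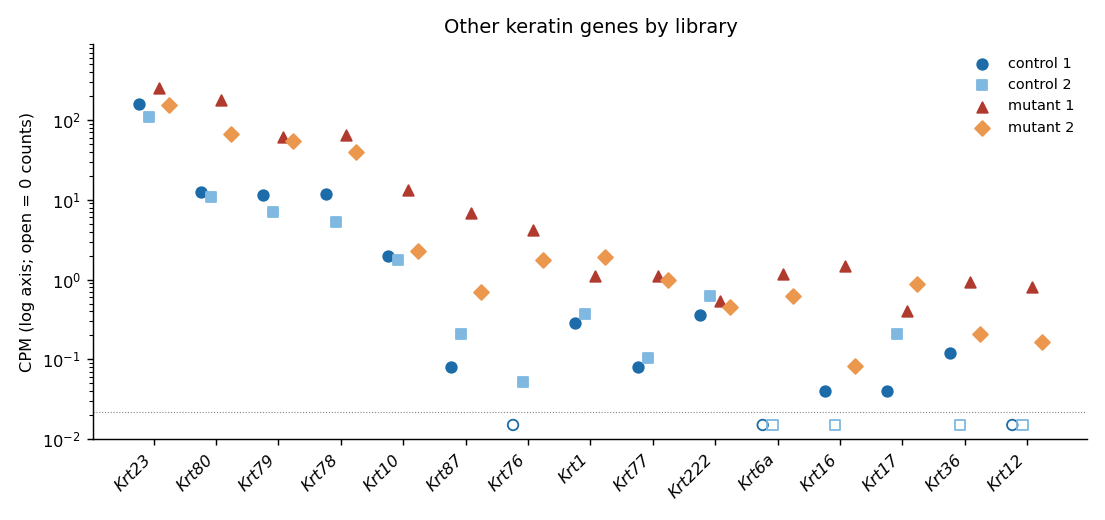
CPM (log axis) in the 4 libraries of the 15 other keratin genes whose mean count reached 10 in 1 genotype or both, ordered by summed CPM, with open symbols for 0 counts. In 13 of the 15 both mutant libraries lie above both control libraries (26.3% of all genes tested), where several were kept only for their mutant counts, and Krt23 and Krt222 overlap.

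Squamous genes that are not keratins were partly absent. Trp63, the transcription factor of basal squamous cells, had 0 counts in all 4 libraries, as did Sprr3, Krtdap, Sprr1b and Calml3. Of 18 such genes 10 were tested, 9 of them higher and 1 lower, with a median log2 fold change of 1.82, 0 passing by edgeR and 4 higher by DESeq2. Over all genes tested 49.9% were higher and 4.06% passed as higher by DESeq2. Ivl, Dmkn and Sbsn, which are 3 of the 4, entered the test only with the help of their mutant counts, so these counts are no support for a difference. The median log2 CPM of the 10 tested lay 2.27 above the control mean in mutant 1 and 0.89 above it in mutant 2. Ivl, which encodes the cornified envelope protein involucrin, was at 0.0403 and 0 CPM in the controls and 41.5 and 0.867 CPM in the mutants. Ly6d was at 42.8 and 14.2 CPM against 525 and 138 CPM (log2 fold change 3.54 ± 0.96; adjusted p = 0.250 by edgeR and 1.52e-04 by DESeq2). Dmkn was at 0.363 and 0.313 CPM against 8.97 and 1.16 CPM, with Sbsn at 0.524 and 1.15 CPM against 7.08 and 5.37 CPM. The small proline-rich gene Sprr2a1 measured 1172 and 834 CPM against 909 and 737 CPM. The 11 markers fixed for squamous forestomach, which include Krt4, Krt5, Krt13 and Krt14, summed to 1173 and 835 CPM in the controls and 1106 and 751 CPM in the mutants, nearly all of it Sprr2a1. The other 10 markers summed to 1.13 and 0.781 CPM against 197 and 13.5 CPM, most of it Krt4, Krt13, Krt14 and Ivl, and 3 of them were at 0 in all libraries. A part of squamous tissue in the mutant values was not tested beyond these levels.

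Genes of the structures that hold keratin filaments went in both directions. Of 14 tested desmosome and cytolinker genes, 9 were higher and 5 lower, with a median of 0.24, where 49.9% of all genes tested were higher. Among the 9, Pkp1 entered the test only with the help of its mutant counts and is no support for a difference. By edgeR 0 passed, and by DESeq2 Dst alone passed, as lower (3.36% of all genes tested). Relative to the control mean the median was 0.60 in mutant 1 and -0.15 in mutant 2. Dst, which encodes a linker of filaments to hemidesmosomes, was at 175 and 154 CPM in the controls and 106 and 71.0 CPM in the mutants (log2 fold change -0.90 ± 0.26; adjusted p = 0.255 by edgeR and 0.0365 by DESeq2). Pkp1, a desmosomal plaque protein of stratified epithelium, measured 0.323 and 0.313 CPM against 5.60 and 1.03 CPM. The linker gene Ppl measured 12.5 and 10.5 CPM against 43.9 and 14.8 CPM. The low gene Dsc3 measured 0.928 and 0.625 CPM against 0.359 and 0.537 CPM. Dsp, which encodes desmoplakin, overlapped between genotypes (636 and 457 CPM against 818 and 439 CPM).

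Of 7 tested genes for hemidesmosomes and their anchors, 6 were higher and 1 lower, with a median of 0.41, where 49.9% of all genes tested were higher. By edgeR 0 passed, and by DESeq2 1, Lamb3, passed as higher (4.06% of all genes tested). Here the median was 1.07 in mutant 1 and -0.18 in mutant 2, so both junction lists changed sign between the mutants. Lamb3, a laminin chain of epithelial basement membrane, was at 130 and 91.2 CPM in the controls and 588 and 282 CPM in the mutants (log2 fold change 1.98 ± 0.46; adjusted p = 0.230 by edgeR and 4.59e-04 by DESeq2). Itgb4, the integrin chain that binds it, was at 153 and 107 CPM against 540 and 193 CPM. Col7a1, of anchoring fibrils, measured 2.58 and 4.48 CPM against 0.672 and 2.15 CPM.

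Regulators and breakdown enzymes of keratin filaments gave 4 higher and 6 lower genes of 10 tested, with a median of -0.12 and 0 passing by either tool (0.036 in mutant 1 and -0.13 in mutant 2). Casp6, a caspase that cuts type I keratins, was at 213 and 163 CPM in the controls and 108 and 150 CPM in the mutants. Prkcz was at 54.9 and 49.3 CPM against 35.2 and 41.0 CPM, Stub1 at 45.2 and 44.6 CPM against 38.0 and 42.9 CPM, and Tchp at 5.41 and 5.42 CPM against 4.93 and 5.08 CPM. Among 8 other filament genes, 7 were higher and 1 lower, with a median of 0.58 (0.37 in mutant 1 and 0.81 in mutant 2). Over all genes tested 49.9% were higher. The log2 fold changes of Nes and Synm, counted as higher, were 0.002 and 0.036, and Nes entered the test only with the help of its mutant counts. By edgeR 0 passed, and by DESeq2 the lamins Lmnb1 and Lmnb2 passed as higher (4.06% of all genes tested). The nuclear lamina gene Lmnb1 was at 27.6 and 22.3 CPM against 47.9 and 42.8 CPM, Lmnb2 at 25.5 and 21.7 CPM against 42.9 and 38.4 CPM, and Lmna at 118 and 106 CPM against 352 and 155 CPM. The astrocyte filament gene Gfap measured 0.686 and 1.15 CPM against 1.61 and 1.16 CPM. The mesenchymal filament gene Vim followed the library number and not the genotype, at 6.29 and 38.9 CPM against 10.04 and 28.2 CPM.

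Markers of other cells that carry simple keratins were compared as well. Mesothelium has Krt7, Krt8, Krt18 and Krt19. Its 6 markers summed to 40.5 and 36.2 CPM in the controls and 6.05 and 13.5 CPM in the mutants. Gpm6a (37.7, 30.2, 0.493 and 9.37 CPM) was most of this sum except in mutant 1, so the lower sum is that of Gpm6a. The other markers were low and did not share a direction. Msln measured 1.01 and 1.15 CPM against 3.32 and 1.65 CPM, and Lrrn4 0.565 and 0.677 CPM against 0.134 and 0.248 CPM. Upk3b overlapped, at 1.17 and 3.23 CPM against 2.11 and 1.98 CPM. The 5 markers of pancreatic and bile ducts, which carry Krt7 and Krt19, summed to 141 and 144 CPM against 164 and 118 CPM. Skin and hair markers summed to 2.50 and 2.66 CPM against 14.9 and 4.58 CPM. Most of it was the keratins Krt10 and Krt1 given above, so this sum is not separate from the keratin values. The marker Lor, which is no keratin, overlapped at 0.242 and 0.521 CPM against 0.269 and 0.289 CPM. Mucous neck and metaplastic gland markers, with Tff2 the most abundant, summed to 1045 and 722 CPM against 12487 and 8156 CPM, and 5 of 5 passed as higher by DESeq2 (4.06% of all genes tested) and 0 by edgeR. General epithelial markers summed to 2137 and 1614 CPM against 2970 and 1796 CPM, fibroblast markers to 44.3 and 461 CPM against 61.3 and 434 CPM, immune markers to 7.79 and 35.5 CPM against 10.8 and 18.5 CPM, and the 7 antral and duodenal markers to 154 and 260.5 CPM against 467 and 215 CPM. The part of any of these cells in the keratin values was not tested.

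The genes nearest in pattern were found by the Euclidean distance between log2 CPM values over the 4 libraries, each gene centred on its mean. Krt8 and Krt18 were 0.20 apart, Krt8 and Krt19 0.30, and Krt18 and Krt19 0.38, whereas Krt20 was 1.84 or more from each of them. Krt7 was 0.66 from Krt4, which was the third nearest gene to it, after Trim29 (0.45) and Fcgbp (0.66). Krt4 in turn was nearest to Eda2r (0.55), Krt7 and Fcgbp (0.68). Krt13 was nearest to Pdx1 (0.28), followed by Onecut3 (0.70) and Ivl (1.06), all highest in mutant 1. Krt14 was nearest to Slurp1 (0.27), at 0.807 and 0.677 CPM in the controls and 85.5 and 37.0 CPM in the mutants, then to Gm45234 (0.50) and Gm9825 (0.72). For Krt20 the nearest were Tmprss3 (0.24), Urah (0.45) and Slc16a3 (0.52). Krt8 was nearest to Unc13d (0.040), Btc (0.11) and Snai3 (0.14), Krt18 to Pkp3 (0.040), Tspan6 (0.048) and Stard5 (0.055), and Krt19 to Agps (0.10), Gm19680 (0.12) and Anxa3 (0.12). Krt4, Krt14, Gm45234 and Gm9825 had 0 counts in the controls. Their log2 CPM there is set by the prior count of 2, so their distances depend on that choice. Trim29, Eda2r, Onecut3, Pdx1 and Ivl were at 0 to 0.282 CPM in the controls, so the prior count weighs on their distances too. With 4 libraries such likeness is a description only.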

How the data were processed

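RNA was extracted from gastric corpus mucosa and made into stranded mRNA libraries, per the labels' protocols. The authors deposited estimated counts per gene (expected counts, with 35.0% of nonzero values not whole), and per the submitters' processing notes the build was mm10. The aligner, counter, annotation and strand setting were not given in the sources used here. Counts were rounded to whole numbers. Symbols were matched by Ensembl identifier to GENCODE M21 (34582 of 34866 rows).

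Muc6 -/- (mutant) was compared with Muc6 +/+ (control) by edgeR 4.0.16 in R 4.3.3 (quasi-likelihood, robust, TMM factors, filterByExpr with a minimum of 10 counts) on 14067 genes, with Benjamini-Hochberg adjustment at 0.05. DESeq2 1.42.0 and limma 3.58.1 (voom) were alternatives. The test was tested on simulated data. Intervals of count ratios are exact (Clopper-Pearson) and cover counting error only. No pair of libraries was a duplicate (within-genotype chi-square per degree of freedom 139 and 272). The members and lists were chosen with earlier results of these data known. Named genes were the members, other keratins whose mean reached 10 counts in a genotype, and the 3 genes nearest to each member. List genes named were up to 4 per list with the largest fold among those without overlap and with at least 10 mean counts in the higher genotype. Others were chosen after their values were seen.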

Additional observations from a re-analysis of the deposited data

How the results depend on the processing

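The number of genes past the edgeR threshold was 0 with all libraries, 9 without the low-count filter, 1044 by DESeq2, and 0 to 851 with 1 library left out, the 851 without mutant 2 and 9 without mutant 1. The stratified median (3 genes, 10.42) was 6.87 with no filter, where all 5 genes entered, 8.20 by limma voom and 6.95 to 8.69 with 1 library left out. Without either control or without mutant 2, Krt5 and Krt15 passed the filter too, and over the same 3 genes the medians were 10.38, 10.49 and 10.86, against 8.69 without mutant 1. The simple median (0.77) was 0.16 to 1.19 with 1 library left out and 0.69 to 0.80 under the other 10 settings. Krt19 ranged from -0.30 to 0.97 with 1 library left out, turning to -0.30 without mutant 1, and the cause was not tested. No other tested member changed direction. Without mutant 2 the log2 fold changes were 12.14 for Krt4, 8.54 for Krt7, 7.60 for Krt13 and 10.86 for Krt14. Krt4 and Krt14, at 0 counts in the controls, entered that fit only through mutant 1, so their values there are no support for a difference. With 1 library left out, the lone library of a genotype is assumed to vary like the other genotype. With the replicate block, the log2 fold changes were 7.04 for Krt7, 0.69 for Krt8, 0.66 for Krt18 and 0.41 for Krt19, and 0 genes passed. The same-numbered libraries deviated together (correlation 0.52), but with 2 pairs the labels give no shared animal or day, so the numbers were not taken to pair the samples. The ratio of type I to type II levels was 1.39 and 1.15 with the longest transcript, against 1.24 and 1.08. Genes under about 3 counts in a library, such as Krt5 and Krt15 outside mutant 1, are at the limit of depth.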
